A study of Mus musculus with 40 samples.

Results

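The early response to the intestinal protozoan Tritrichomonas musculis (T.mu) was compared between isolated colonic epithelial cells and total colonic tissue, 3 days after inoculation. The quantity described is an interaction: the log2 change with T.mu in epithelium minus the log2 change with T.mu in total tissue, so that a positive value is a larger rise (or smaller fall) in epithelium. It uses 12 of the 40 libraries of the series, 3 in each of 4 groups. These are epithelial cells of uninoculated controls, epithelial cells of mice given 2000000 sorted T.mu cells, total colonic tissue of controls and total colonic tissue of mice given T.mu. Every mouse gene of the deposited table was considered, 45792 in all, of which 11834 had enough counts to be tested. Each library carries a litter number from 1 to 3. The labels do not say that the epithelium and the tissue of 1 litter came from the same mouse, and strain, age and sex of the mice are not given in the sources used here. Nothing states how the 3 libraries of a group were separated beyond their litters. The p-values therefore rest on the spread between libraries within groups, which was estimated over all 40 libraries of the series.

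T.mu lives in the lumen of the mouse colon, next to the epithelium. Epithelial cells and the immune cells beneath them both answer microbes through interferons, secreted signals that bind receptors on neighbouring cells. Type I and type III interferons act through a transcription factor complex that binds a short DNA sequence, the interferon-stimulated response element, before a common set of antiviral genes. Interferon-gamma is known for inducing GTPases that attack intracellular parasites and for antigen presentation. Irf7 encodes an interferon-induced transcription factor that raises further interferon production. In a bulk preparation fewer cells of a type and less RNA per cell cannot be told apart.

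The preparations differed in their stromal markers, as their labels call for. Summed smooth muscle markers were at 139.2 to 288.1 CPM (counts scaled to library size) in the epithelial libraries and at 4853 to 9611 in tissue, and fibroblast and matrix genes at 163.5 to 283.8 against 1762 to 4461. Goblet cell genes were higher in epithelium, at 35940 to 49700 CPM against 13710 to 20860. Absorptive colonocyte genes and epithelial identity genes went against the label. The first summed to 20530 to 40470 CPM in epithelial libraries and 87220 to 105400 in tissue, and the second to 10760 to 20460 against 19580 to 22430. Epithelial libraries were shallow and uneven, with 170291 to 670891 mouse counts in controls and 311495 to 1242093 with T.mu, against 3252453 to 4363859 and 1307604 to 3585722 in tissue. As a result 4838 genes were counted well enough in each preparation on its own, and 5760 in tissue alone. The median standard error of a log2 change among the 4838 was 0.395 in epithelium and 0.299 in tissue. The mitochondrially encoded share of counts moved with the epithelial comparison. It was 28.4% to 33.7% in epithelial controls and 11.5% to 22.5% with T.mu, without overlap, and 12.5% to 12.9% against 9.27% to 11.1% in tissue.

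One library stood apart. Xist, the RNA that silences an X chromosome in female cells, was at 7.17 CPM (4 counts) in the litter 2 epithelial control and between 110 and 654 CPM in each of the other 11 libraries at day 3. Over the other 39 libraries of the series it ranged from 94.8 to 1080 CPM. Counts on 4 Y-linked genes (Ddx3y, Uty, Kdm5d and Eif2s3y) were 0 in that library and in the other 11, so these genes do not tell what sets it apart. Because it is also the deepest epithelial control, counts of genes are given below with and without it.

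**Figure D1:**
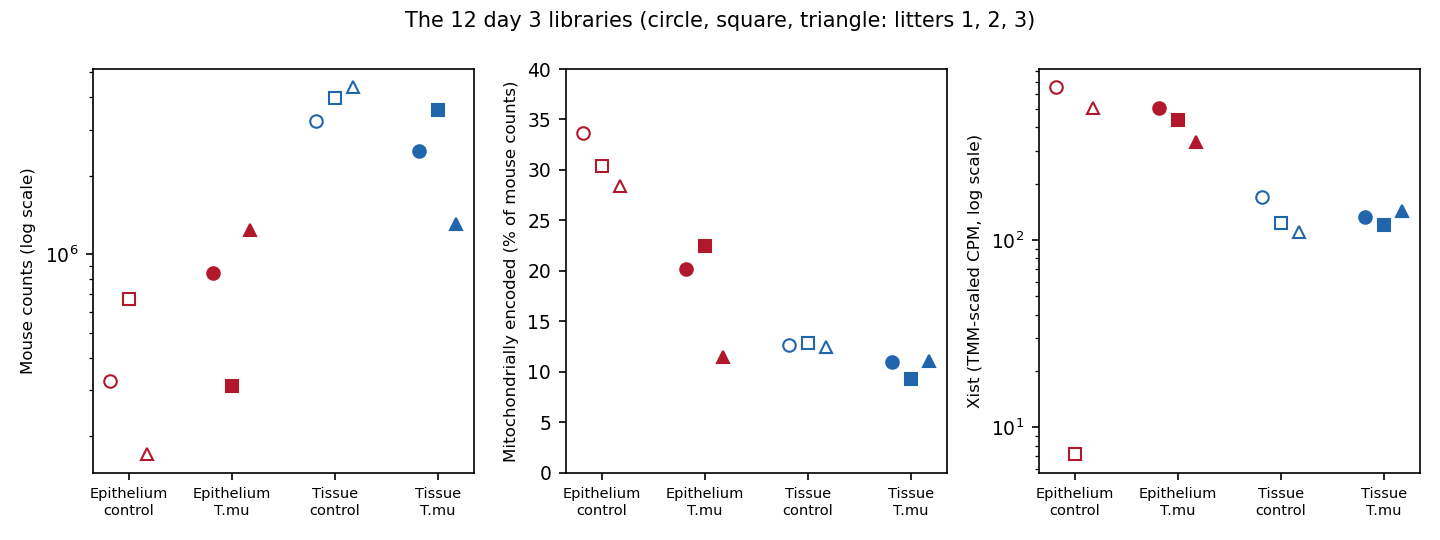
Mouse counts (log axis), mitochondrially encoded share of mouse counts and Xist level (TMM-scaled CPM, log axis) of the 12 libraries at day 3, by group; open symbols are controls, filled symbols T.mu, and symbol shape is the litter. The epithelial control of litter 2 lies at 7.17 CPM of Xist, below all others, and the T.mu epithelial libraries have mitochondrial shares below every epithelial control.

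Where did the response differ between preparations? Of 11834 genes, 4 passed the interaction test (0.0338%), and each had the larger change in epithelium: Gstm3, Irf7, Spns1 and Neu1. None had a negative interaction past the threshold of 0.05 on the adjusted p of edgeR's quasi-likelihood test. A negative value can be a larger rise in tissue or a larger fall in epithelium. At an unadjusted p below 0.05 there were 1265 genes (10.7%), 863 with a positive interaction and 402 with a negative one. Below an adjusted p of 0.10 there were 10 genes, 8 of them with a positive interaction. Without the litter 2 epithelial control the count was 72, of which 71 had a positive interaction. All 4 genes were among these 71. In 69 of the 71 that control lay above both other epithelial controls, so leaving it out lowers the epithelial baseline of those genes. DESeq2 gave 8 genes, 3 with a positive interaction and 5 with a negative one. Among these 5 were Ids and Slit2, which fell in epithelium. The count with limma voom was 0, with 1227 at an unadjusted p below 0.05.

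The interaction is measured with limited precision. The median standard error over all genes tested was 0.795 on the log2 scale, and the median 95% interval reached 1.58 to either side. The scaling also sets where 0 lies. The median interaction of all genes was 0.162 with TMM scaling and -0.0637 with RLE scaling, so values near 0 have no direction of their own. With RLE scaling 4 genes passed, 3 with a positive interaction and 1, Slit2, with a negative one. With TMM scaling Slit2 was at log2 -3.53 ± 0.92 in epithelium and 1.46 ± 0.67 in tissue.

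Irf7 showed the clearest difference among interferon genes. Its epithelial levels were 30.3, 57.3 and 29.8 CPM in the controls of litters 1, 2 and 3 and 312, 207 and 394 CPM with T.mu. In tissue they were 492, 487 and 371 CPM in controls and 801, 1057 and 881 CPM with T.mu. T.mu libraries lay above all controls in each preparation, and every tissue control lay above every epithelial control. The fold change was 7.34 in epithelium (log2 2.88 ± 0.30, adjusted p = 2.22e-11) and 2.03 in tissue (log2 1.02 ± 0.23, adjusted p = 0.0086). The interaction was 1.85 ± 0.38 (95% interval 1.10 to 2.60, adjusted p = 0.0238). By litter the ratio of T.mu to control was 10.3, 3.62 and 13.2 in epithelium and 1.63, 2.17 and 2.37 in tissue. It was larger in epithelium in 3 of 3 litters, which restates the values tested and is no separate support. The direction depends on the log scale. In CPM the mean rose by 265 in epithelium and by 463 in tissue, so the proportional rise was larger in epithelium and the added CPM larger in tissue. Irf7 overlaps Phrf1 on the opposite strand, and the strand of counting is not given in the sources used here. Phrf1 did not pass in epithelium (log2 1.45 ± 0.53, adjusted p = 0.198), in tissue (log2 0.09 ± 0.34, adjusted p = 1) or in the interaction (1.36 ± 0.64, adjusted p = 0.436), and its group means lay between 11.1 and 32.5 CPM.

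Gstm3, a mu-class glutathione transferase that conjugates electrophiles to glutathione, had values of opposite sign in the preparations. In epithelium its levels were 18.2, 23.3 and 9.94 CPM in controls and 95.5, 53.3 and 86 CPM with T.mu. In tissue they were 48.2, 68.9 and 49.6 CPM in controls and 29.6, 32.8 and 37.4 CPM with T.mu. The groups did not overlap in either preparation, and T.mu libraries were the higher ones in epithelium and the lower ones in tissue. Gstm3 rose 4.29-fold in epithelium (log2 2.10 ± 0.42, adjusted p = 0.00184), while the tissue value of -0.75 ± 0.30 did not pass (adjusted p = 0.897). The interaction was 2.85 ± 0.52 (95% interval 1.82 to 3.87, adjusted p = 0.00403). Over 25 alternative settings it stayed past the threshold in 22, with a log2 value between 2.38 and 3.21. Gstm3 belongs to a family of near-identical genes whose reads the authors' counting could split, so the share that is Gstm3 itself is uncertain. Of the relatives tested, Gstm1 had an interaction of 0.34 ± 0.35 (adjusted p = 0.787), Gstm2 0.13 ± 0.48 (adjusted p = 0.965) and Gstm4 2.48 ± 0.98 (adjusted p = 0.353). Gstm5, Gstm6 and Gstm7 had values below 0, at -0.14 ± 0.50, -0.52 ± 0.90 and -1.32 ± 1.06 (adjusted p = 0.963, 0.893 and 0.712).

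Neu1 encodes the lysosomal sialidase, which removes sialic acid from glycoproteins. Its epithelial levels were 30.3, 50.2 and 29.8 CPM in controls and 126, 88.8 and 146 CPM with T.mu. In tissue the controls were at 542, 527 and 633 CPM and the T.mu libraries at 574, 510 and 484 CPM. The epithelial groups were apart and the tissue groups overlapped. Neu1 rose 3.16-fold in epithelium (log2 1.66 ± 0.30, adjusted p = 0.000532), against -0.12 ± 0.22 in tissue (adjusted p = 1), with an interaction of 1.78 ± 0.38 (95% interval 1.02 to 2.53, adjusted p = 0.0291).

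Spns1 encodes a transporter of the lysosomal membrane that exports lysophospholipids. It had 2 counts in the 3 epithelial controls together and 78 with T.mu, or 3.03, 1.79 and 0 CPM against 14.5, 17.8 and 51.6 CPM. The ratio was 18.3, with a 95% counting interval of 4.89 to 153 that covers counting error only. In tissue it was at 27.2, 31.9 and 36.9 CPM in controls and 19.5, 21 and 23.9 CPM with T.mu, log2 -0.58 ± 0.40 (adjusted p = 1). The adjusted p of its interaction was 0.0285. Its size in epithelium rests on those 2 counts, and Spns1 was not among the 4838 genes counted in each preparation. Tested among those 4838 genes, Gstm3 alone passed (adjusted p = 0.00839).

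**Figure D2:**
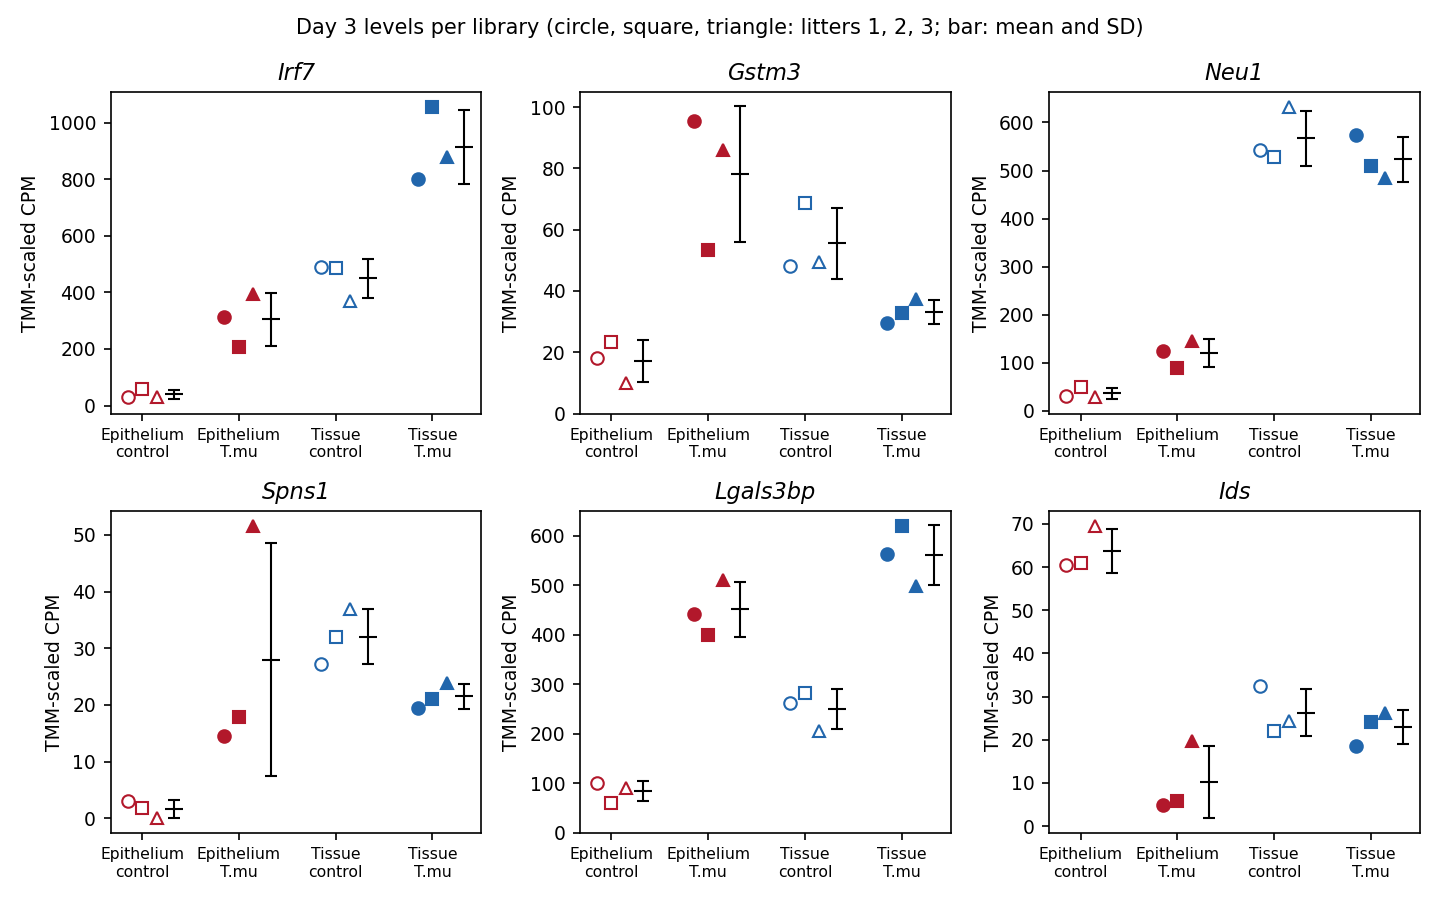
TMM-scaled CPM (y axis) in each of the 12 libraries for Irf7, Gstm3, Neu1, Spns1, Lgals3bp and Ids, with mean and SD of each group of 3; red is epithelium, blue total tissue, open symbols controls and filled symbols T.mu. In Irf7 the 2 epithelial groups and the 2 tissue groups are each apart, with epithelium at 29.8 to 394 CPM and tissue at 371 to 1057, while Neu1 is apart in epithelium and overlaps in tissue.

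The 4 calls differed in how far they held. Across 25 alternative settings Irf7 stayed past the threshold in 13 (log2 1.44 to 2.36) and Neu1 in 8 (1.40 to 2.18). Spns1 could be tested in 24 and stayed in 9. No setting turned the direction of any of them. A term for litter left 4 genes, the same 4. Taking epithelium and tissue of 1 litter and inoculum as 1 animal left Gstm3 and Irf7, each at an adjusted p of 0.0229. With the mitochondrial share of each library as a covariate, an alternative chosen after seeing the data, 0 genes passed and 749 were at an unadjusted p below 0.05. Leaving out 1 library other than the litter 2 epithelial control gave 1 to 7 genes, with 1, Gstm3, left without the epithelial control of litter 1 or 3 or the T.mu tissue library of litter 1 or 3. It gave 2 without the tissue control of litter 3 or the T.mu tissue library of litter 2, and 7 without the T.mu epithelial library of litter 2. Without libraries under 400000 counts, which leaves 1 epithelial control and 2 epithelial T.mu libraries, 4 other genes passed and none of these 4. The control left is that of litter 2, with the low Xist, and Xist was among the 4 genes. With 1 library in that group its spread is assumed to be that of the other groups.

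How did the interferon response compare? Each preparation was first read on its own, against its own controls. In epithelium 60 genes passed (0.507%), 56 higher with T.mu (0.473%) and 4 lower (0.0338%). In total tissue 53 genes passed (0.448%), all higher. Irf7 and 17 further genes passed in both: Lgals3bp, Ifi27l2a, Ifi27l2b, Oas1a, Oas2, Oas3, Oasl2, Irf9, Bst2, Rtp4, Isg15, Lgals9, Ddx60, Ly6e, Slfn4, Rnf213 and Ifi44. A further 42 passed in epithelium alone and 35 in tissue alone, which does not show that they differ between preparations, since 3 of the 42 and 0 of the 35 passed the interaction. Without the litter 2 epithelial control the epithelial count was 209 and without the litter 2 epithelial T.mu library 110. It was 27 without the epithelial control of litter 1 or the T.mu library of litter 3, 29 without the control of litter 3 and 39 without the tissue control of litter 3. The tissue count was 28, 32 and 31 without the tissue control of litter 3, that of litter 2 and the T.mu tissue library of litter 2.

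Among the 18 genes past the threshold in both, the fitted log2 change was larger in epithelium in 16, the exceptions being Ly6e and Slfn4. The median standard error of these genes was 0.587 in epithelium and 0.327 in tissue, so a gene had to change more in epithelium to pass there, and the 16 are not evidence of a larger epithelial response. On the CPM scale the order was different. The added CPM was larger in epithelium in 7 of the 18 and larger in tissue in 11, and the control mean was lower in epithelium in 15.

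Lgals3bp, whose secreted product binds galectin 3 and answers interferon, came closest to Irf7 among them. Its epithelial levels were 99.9, 60.9 and 89.4 CPM in controls and 443, 400 and 511 CPM with T.mu. Its tissue levels were 262, 283 and 205 CPM in controls and 564, 620 and 499 CPM with T.mu. The groups were apart in each preparation, with every T.mu library above every control of its preparation. Lgals3bp rose 5.57-fold in epithelium (log2 2.48 ± 0.27, adjusted p = 6.02e-11) and 2.24-fold in tissue (log2 1.17 ± 0.22, adjusted p = 0.000574), with an interaction of 1.31 ± 0.34 that did not pass (adjusted p = 0.149).

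Several antiviral genes were at or near 0 in control epithelium. Isg15, a ubiquitin-like protein attached to other proteins, had 0 counts in the 3 epithelial controls and 64 with T.mu, at least 9.99-fold higher against a floor of 3 counts over the group. In tissue it stood at 8.65, 7.09 and 12.9 CPM in controls and 77.5, 157 and 93.4 CPM with T.mu, log2 3.51 ± 0.48 (adjusted p = 8.12e-06). Ifi27l2a, a small interferon-induced membrane protein, had 150 counts with T.mu against 0, at least 23.4-fold higher in epithelium, and rose 4.30-fold in tissue. Ube2l6, the enzyme that conjugates ISG15, had 78 against 0 in epithelium, at least 12.2-fold higher, and its tissue value of 1.25 ± 0.36 did not pass (adjusted p = 0.147). Oas3, an oligoadenylate synthetase that activates RNase L, had 128 counts against 2 in epithelium, a ratio of 30 with a 95% counting interval of 8.13 to 250, and rose 3.20-fold in tissue (adjusted p = 0.000498). None of these 4 passed the interaction (adjusted p = 0.605, 0.165, 0.0936 and 0.225, in the order named). Before adjustment, the 95% interval of the interaction lay above 0 for Ifi27l2a, Ube2l6 and Oas3 and spanned 0 for Isg15.

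For other genes the changes in the preparations were alike within their errors. Ifi27l2b went from 42.4, 32.3 and 39.8 CPM to 190, 249 and 154 CPM in epithelium and from 75.4, 80 and 101 to 262, 395 and 264 CPM in tissue. Both rises passed (log2 2.38 ± 0.31 and 1.84 ± 0.24), with a difference of 0.53 and a 95% interval of -0.25 to 1.32. Lgals9, which encodes an immunomodulatory galectin, gave 0.47 (-0.21 to 1.16). Ly6e, a membrane protein that restricts viral fusion, was 5.9 times as high in epithelial as in tissue controls. It rose from 345, 339 and 189 CPM to 689, 729 and 853 CPM in epithelium and from 51.3, 48.1 and 48.5 to 121, 150 and 197 CPM in tissue, with a difference of -0.30 (-1.0 to 0.40).

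Genes past the threshold in tissue alone included negative regulators and GTPases of the interferon response. Usp18, the protease that removes ISG15 and dampens interferon receptor signalling, went from 6.8, 3.54 and 4.67 CPM to 25.4, 76.8 and 40.4 CPM in tissue (log2 3.26 ± 0.48, adjusted p = 3.73e-06). In epithelium its levels were 3.03, 8.96 and 9.94 CPM in controls and 12.1, 23.7 and 10.3 CPM with T.mu (log2 0.91 ± 0.77, adjusted p = 0.672). The tissue groups were apart and so, narrowly, were the epithelial ones, and the interaction was -2.35 ± 0.97 (adjusted p = 0.378). Trim30a, a regulator of innate signalling, rose 10.4-fold in tissue and had an interaction of -1.43 ± 0.89 (adjusted p = 0.583). Its mean was also higher with T.mu in epithelium, by 22.4 CPM beside 35.9 in tissue. Over 25 alternative settings its interaction ran from -1.95 to 0.0606. Irgm1, a GTPase that regulates autophagy in infected cells, rose 3.31-fold in tissue (adjusted p = 4.93e-05), with 1.68-fold in epithelium (adjusted p = 0.457) and an interaction of -0.98 ± 0.51 (adjusted p = 0.5).

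By list, the interferon genes moved in both preparations. Of 57 genes of a type I interferon response list 52 were tested, and 16 rose in epithelium and 27 in tissue, with 0 falling in either. Their median log2 change was 1.66 in epithelium and 1.67 in tissue, beside 0.128 and -0.00633 over all genes tested. The median interaction was 0.367 beside 0.162 for all genes, and 0.106 with genes of a group at 0 set to their bound. None of the 52 passed the interaction, and in 45 the 95% interval of the difference spanned 0. The added CPM was larger in tissue in 41 of the 52, and the control mean was lower in epithelium in 45.

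Interferon-gamma response GTPases and related genes gave 0 of 15 members past the threshold in epithelium and 5 in tissue. Their median was 0.846 in epithelium and 1.52 in tissue, with a median interaction of -0.241 (-0.0432 with the bounds). Over the alternatives this median ran from -0.857 to 0.297, so it has no settled sign. Only 3 of the 15 were counted in each preparation, and no member passed the interaction. Of 28 tested receptors, sensors and transcription factors of the interferon pathway, 2 rose in epithelium (Irf7 and Irf9) and 4 in tissue (these and Stat2 and Dhx58).

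MHC class I genes present peptides to cytotoxic T cells. Of 25 tested genes of this list with the immunoproteasome, 3 rose in epithelium (H2-D1, H2-T23 and Calr) and 1 in tissue (Tap1, a peptide transporter), and 0 passed the interaction. The median was 0.873 in epithelium and 0.412 in tissue. H2-T23, which encodes the non-classical molecule Qa-1, went from 18.2, 59.1 and 49.7 CPM to 146, 82.9 and 243 CPM in epithelium and from 281, 253 and 282 to 395, 496 and 355 CPM in tissue, with an interaction of 1.29 ± 0.55 (adjusted p = 0.404). B2m, the light chain, differed by 0.06 (95% interval -0.58 to 0.70). MHC class II genes had no call in either preparation, and 9 of 12 were tested.

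**Figure D3:**
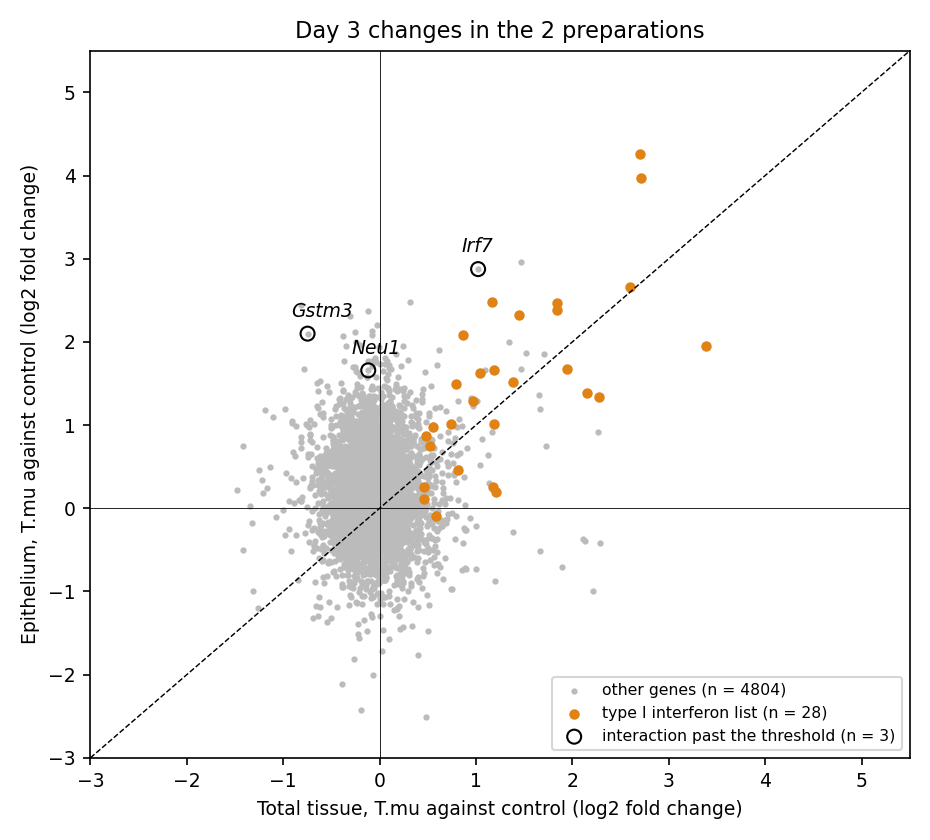
Log2 change with T.mu in total tissue (x axis) and in epithelium (y axis) for the 4832 genes counted in each preparation with more than 3 counts in every group; the dashed line marks equal change, orange points are 28 type I interferon list genes and circles are genes past the interaction threshold. Irf7 (1.02, 2.88), Gstm3 (-0.75, 2.10) and Neu1 (-0.12, 1.66) lie above the line, and orange points lie on both sides of it.

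**Figure D4:**
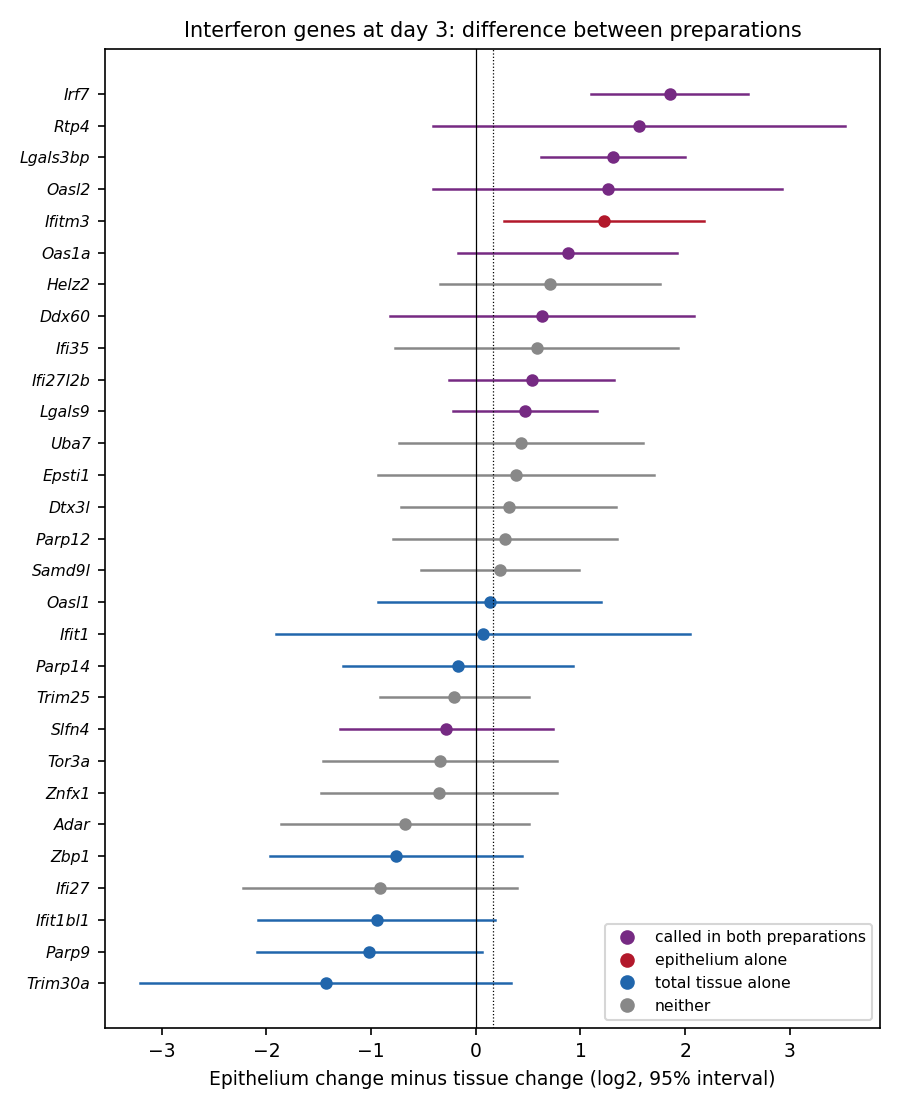
Difference of the log2 changes (epithelium minus total tissue, x axis) with its 95% interval for Irf7 and 28 type I interferon list genes counted in each preparation with more than 3 counts in every group; colour shows in which preparation a gene was called, and the dotted line is the median of all genes, 0.162. Of the 29 intervals 26 span 0, and those of Irf7, Lgals3bp and Ifitm3 do not.

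Promoter sequence was read for the interferon genes because they rose together in both preparations. The 250 bases before the RefSeq start site (GRCm38.p6) are given 5′ to 3′ on the gene's strand. Capitals mark matches to GAAANNGAA, the core of the interferon-stimulated response element, searched on both strands with overlaps allowed. Isg15 and Oas3 rose in both preparations and hold overlapping matches, 3 and 2. Irf7, with the larger proportional rise in epithelium, holds these letters nowhere in this window. The windows lie at chr4:156200819-156201068, chr5:120777660-120777909 and chr7:141266425-141266674, all on the minus strand.
Isg15: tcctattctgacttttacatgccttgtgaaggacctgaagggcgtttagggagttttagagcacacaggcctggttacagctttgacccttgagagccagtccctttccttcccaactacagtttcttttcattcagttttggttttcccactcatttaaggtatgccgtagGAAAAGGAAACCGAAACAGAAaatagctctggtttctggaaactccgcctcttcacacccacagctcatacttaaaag
Oas3: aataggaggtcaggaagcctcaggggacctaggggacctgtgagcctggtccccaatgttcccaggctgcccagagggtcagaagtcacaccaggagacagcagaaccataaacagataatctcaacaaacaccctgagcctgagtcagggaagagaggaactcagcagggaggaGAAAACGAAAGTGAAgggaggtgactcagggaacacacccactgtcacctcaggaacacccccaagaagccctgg
Irf7: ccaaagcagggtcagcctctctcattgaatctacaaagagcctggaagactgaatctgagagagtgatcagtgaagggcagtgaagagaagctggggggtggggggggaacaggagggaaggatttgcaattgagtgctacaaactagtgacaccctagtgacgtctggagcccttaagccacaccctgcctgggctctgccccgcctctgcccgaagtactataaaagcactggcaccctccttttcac

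The letters GAAANNGAA occurred in 2342 of all 32851 windows of this length (7.13%). They occurred in 675 of the 9035 tested genes that have a window (7.47%) and in 15 of 40 type I interferon list genes (37.5%). Among genes past the threshold in both preparations 6 of 13 with a window held a match (46.2%), and among those past it in tissue alone 13 of 27 (48.1%). Among those past it in epithelium alone the share was 1 of 36 (2.78%), the match being in H2-T23. These shares describe the windows and were not tested.

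Gstm3 is shown for another set of letters. Glutathione transferase genes are known to answer oxidative stress through the antioxidant response element. The letters searched, TGANNNNGC, are a looser pattern than the core of that element, so a match is not by itself a site of it. Capitals mark matches to these letters on either strand in the 250 bases before the Gstm3 start (GRCm38.p6, chr3:107969175-107969424, minus strand). There were 2 matches, but the letters are common and occurred in 3762 of 9035 tested genes (41.6%) and in 25 of 47 genes of the xenobiotic metabolism list (53.2%).
Gstm3: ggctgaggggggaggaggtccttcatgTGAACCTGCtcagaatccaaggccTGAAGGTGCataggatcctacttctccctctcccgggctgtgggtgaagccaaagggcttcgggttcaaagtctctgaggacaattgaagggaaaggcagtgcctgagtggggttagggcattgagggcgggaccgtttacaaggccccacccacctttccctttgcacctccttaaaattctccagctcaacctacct

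Which other gene groups differed between preparations? Outside interferon, the 42 genes past the threshold in epithelium alone were a mixture. The lower mitochondrial share of the epithelial T.mu libraries goes with the epithelial values below, and so does GC content. Across 11809 genes with a value, Spearman's rank correlation with GC content was 0.303 for the epithelial change, 0.28 for the interaction and -0.0354 for the tissue change, a description across genes, which are not independent. The part of these in the lists below was not tested.

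Epithelial identity genes, the keratins, claudins and adhesion molecules of the sheet, had a median change of 0.485 in epithelium and -0.0499 in tissue over 32 members. The median interaction was 0.508, beside 0.162 for all genes, and 0.284 beside -0.0637 with RLE scaling. Of the 32, 1 rose in epithelium, Cldn3, a claudin of the tight junction, from 197, 328 and 219 CPM to 423, 349 and 744 CPM. Its tissue levels overlapped, at 656, 799 and 725 CPM in controls and 714, 816 and 716 CPM with T.mu, and its interaction of 0.98 ± 0.36 did not pass (adjusted p = 0.326). Krt19, a keratin of the crypt, had an interaction of 1.10 ± 0.36 (adjusted p = 0.268). Epcam, which marks the epithelium as a whole, differed by 0.28 (95% interval -0.26 to 0.83), and no member passed the interaction. Summed levels of this list were 10760 to 13820 CPM in epithelial controls and 14110 to 20460 with T.mu.

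Fatty acid oxidation and ketogenesis genes, which burn the butyrate and lipid that fuel colonocytes, had a median of 0.378 in epithelium and -0.16 in tissue over 33 members. The median interaction was 0.514, beside 0.162 for all genes, with 30 of 33 values above 0 beside 6800 of all 11834, and 0 past the threshold. Without the litter 2 epithelial control 2 of 33 members passed, Hadha among them, beside 72 of all 12718 genes. The xenobiotic metabolism and nuclear-encoded respiration lists had 2 members each past the threshold under that setting, so this was not particular to fatty acid oxidation. Hadha, the long-chain subunit of the mitochondrial trifunctional protein, rose 2.25-fold in epithelium, from 48.4, 86 and 34.8 CPM to 137, 113 and 157 CPM (adjusted p = 0.0467). In tissue it was at 338, 334 and 336 CPM in controls and 350, 339 and 299 CPM with T.mu.

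Nuclear-encoded respiration genes gave a smaller median interaction of 0.147, below that of all genes, over 75 members. Uqcrc1, a core subunit of respiratory complex III, was the member that rose in epithelium. Its levels went from 151, 405 and 239 CPM to 550, 515 and 888 CPM there (log2 1.28 ± 0.26, adjusted p = 0.00502), and were 572, 571 and 675 CPM in tissue controls and 498, 658 and 478 CPM with T.mu. The interaction was 1.43 ± 0.36 (adjusted p = 0.127), and 1.95 with an adjusted p of 0.00369 without the litter 2 epithelial control, which was the highest of the 3 controls. The 10 mitochondrially encoded genes tested had a median of -0.503 in epithelium and -0.294 in tissue.

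Differentiated cell types of the crypt gave modest values. The median interaction was 0.506 over 30 goblet cell genes and 0.326 over 39 absorptive colonocyte genes, beside 0.162 for all genes. It was 0.617 over 26 antimicrobial genes and targets of IL-22 or IL-17, and each of these lists had 0 members past the interaction. Muc2, the secreted mucin of goblet cells, was at 16615 to 26264 CPM in the 6 epithelial libraries and differed by 0.19 (95% interval -0.61 to 0.99). Retnlb, a goblet cell protein of type 2 responses, reached 1552 CPM in the litter 2 epithelial T.mu library and 158 to 390 CPM in the other 5, and its interaction of 1.74 ± 1.18 did not pass (adjusted p = 0.643). Krt20, a keratin of surface colonocytes, rose 2.12-fold in epithelium (adjusted p = 0.0129). Its tissue change of 1.16-fold did not pass (adjusted p = 1), and its interaction was 0.87 ± 0.32 (adjusted p = 0.326). The added CPM was larger in tissue, at 354 against 123 in epithelium.

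Cell cycle and replication genes had a median of 0.391 in epithelium and -0.0865 in tissue over 41 members. The median interaction was 0.478, beside 0.162 for all genes. Of the 41 values 31 lay above 0, beside 6800 of all 11834, and 0 passed the threshold. Over the 28 members counted in each preparation the median was 0.338, beside 0.24 for all genes so counted. Mcm2, a subunit of the replicative helicase, went from 12.1, 10.8 and 0 CPM to 19.4, 59.2 and 65.4 CPM in epithelium and passed there (adjusted p = 0.0471). Its tissue levels lay between 3.39 and 8.1 CPM, and the interaction was 2.85 ± 0.82 (adjusted p = 0.176).

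Xenobiotic metabolism genes had a median interaction of 0.324 over 53 members, beside 0.162 for all genes, Gstm3 being the member past the threshold. Cholesterol and lipid synthesis genes gave 0.366 over 34 members, with 0 past the threshold. Genes of ER stress gave 0.272 over 25 members. Calr, an ER chaperone, rose in epithelium from 127, 244 and 99.4 CPM to 273, 296 and 421 CPM (adjusted p = 0.0318), was at 153 to 160 CPM in tissue controls and 138 to 141 with T.mu (adjusted p = 1), and had an interaction of 1.18 ± 0.34 (adjusted p = 0.19).

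**Figure D5:**
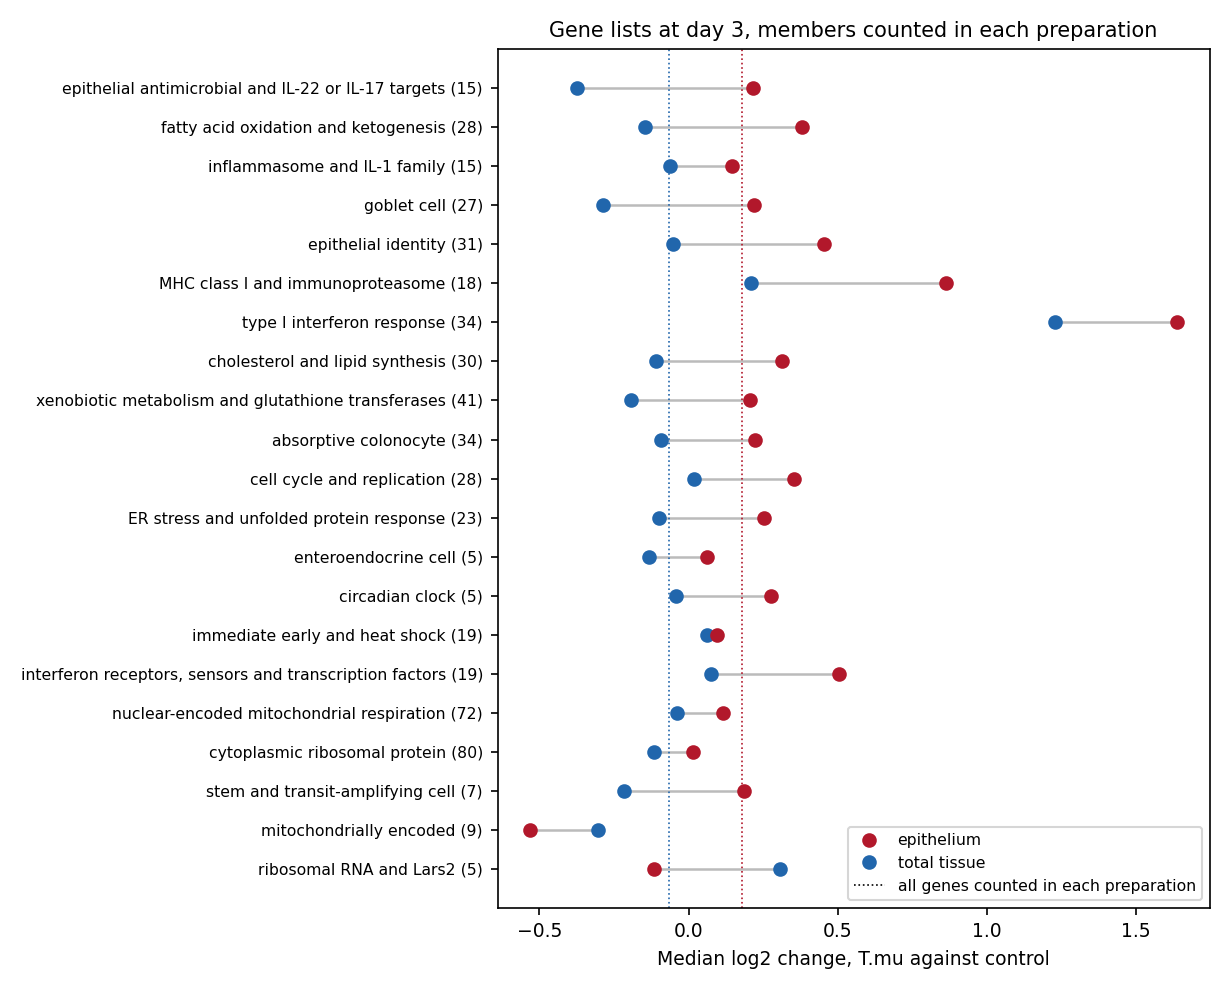
Median log2 change with T.mu (x axis) in epithelium (red) and total tissue (blue) for 21 gene lists with at least 5 members counted in each preparation, the number of such members in brackets; dotted lines are the medians of all 4838 such genes, 0.181 in epithelium and -0.0668 in tissue. The type I interferon list stands at 1.64 and 1.23, and in 19 of the 21 lists the epithelial median is the higher one, as it is for all genes.

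Inflammasome genes are of interest because T.mu is known for activating epithelial inflammasomes and releasing IL-18. Of 26 tested genes of the inflammasome and IL-1 family, 1 rose in epithelium and 0 in tissue, and 0 passed the interaction. Gsdmd, the pore-forming gasdermin that inflammatory caspases cleave, went from 42.4, 71.7 and 29.8 CPM to 108, 101 and 153 CPM in epithelium (log2 1.24 ± 0.29, adjusted p = 0.0198). In tissue its controls were at 143, 144 and 109 CPM and its T.mu libraries at 154, 170 and 132 CPM, which overlap, and the interaction was 1.04 ± 0.37 (adjusted p = 0.325). Il18 was at 251, 136 and 49.7 CPM in epithelial controls and 82.2, 118 and 64.5 CPM with T.mu, with an interaction of -0.99 ± 0.60 (adjusted p = 0.581). Casp1, the caspase that matures IL-18, differed by -0.13 (95% interval -0.86 to 0.59).

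The 4 genes that fell in epithelium were Ids, Slit2, Trappc8 and Lama3, and none fell in tissue. Ids, the lysosomal sulfatase that degrades heparan and dermatan sulfate, went from 60.5, 60.9 and 69.6 CPM to 4.84, 5.92 and 19.8 CPM in epithelium. In tissue it was at 32.4, 22 and 24.5 CPM in controls and 18.6, 24.2 and 26.2 CPM with T.mu, which overlap. It fell 5.39-fold in epithelium (adjusted p = 0.000746), with an interaction of -2.23 ± 0.58 that did not pass (adjusted p = 0.135) and passed with DESeq2 (adjusted p = 0.0199). Slit2, a guidance ligand of the Robo receptors, was at 36.3, 23.3 and 9.94 CPM in epithelial controls and 0, 0 and 4.3 CPM with T.mu, and did not pass in tissue (1.46 ± 0.67, adjusted p = 1). Its interaction was -5.00 ± 1.14 (adjusted p = 0.0843). It passed in 5 of 24 alternatives, RLE scaling and DESeq2 among them (adjusted p = 0.0452 and 0.0199). Lama3, a chain of the basement membrane laminin that anchors epithelium, fell 4.33-fold in epithelium (adjusted p = 0.0446) with an interaction of -1.73 ± 0.65 (adjusted p = 0.33).

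Markers of other cell types moved with some values. Hbb-bs, a haemoglobin chain of red blood cells, was at 24.2, 43 and 9.94 CPM in epithelial controls and 196, 59.2 and 203 CPM with T.mu (adjusted p = 0.0471), and at 5.93 to 28.4 CPM in tissue. Its interaction was 3.26 ± 0.84 (adjusted p = 0.155). The median of 7 red blood cell genes was 2.09, beside 0.162 for all genes, and 0.497 over the 4 counted in each preparation. Over the alternatives the list median ran from 0.474 to 3.94. The summed level of that list overlapped between epithelial groups, at 541.6 to 926.4 and 796.7 to 1184 CPM. Most of that sum was Car2, which is also in the absorptive colonocyte list. Car2 was at 432 to 794 CPM in epithelial controls and 666 to 785 with T.mu, so the overlap says little about the other members. Fibroblast and matrix genes ran the other way, with a median of -0.473 over 34 members and a tissue median of 0.529. Only 1 of the 34 was counted in each preparation, and 10 had a group at 0 (-0.465 over 23 with the bounds). The epithelial side of that median thus rests on few counts. Their sum was 3470, 2813 and 1762 CPM in the tissue controls of litters 1, 2 and 3 and 3640 to 4461 with T.mu. The litter 3 tissue control was also the lowest in summed smooth muscle markers, at 4853 CPM against 8449 and 9611 in the other tissue controls. Macrophage and dendritic cell genes had a median interaction of -1.63 over 21 members (-0.563 over 12 with the bounds), and sums of 790.1 to 1003 CPM in tissue controls and 1161 to 1335 with T.mu. Neither the fibroblast list nor the macrophage list had a member past the threshold in either preparation or in the interaction. Adipocyte genes accounted for 3 of the 35 tissue calls, Adipoq, Car3 and Cfd. Adipoq, the hormone adiponectin, had 61 counts with T.mu and 2 in tissue controls, a ratio of 45.8 (95% counting interval 12.1 to 386). Of 16 neutrophil genes 2 were tested, too few to name a cell type by. Their sum was 89.44 to 161.3 CPM in epithelial controls and 3.398 to 5.57 in tissue controls. Cd177 had an interaction of 0.26 ± 0.63 (adjusted p = 0.929). Ly6g had 68 counts in epithelial controls and 136 with T.mu, against 0 and 2 in tissue, which is under the floor and gives no ratio there. The epithelial T.mu libraries were also deeper, with a median of 842506 mouse counts against 327125 in controls, so these raw counts do not show a rise. The part of other cell types in the results above was not tested.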

How the data were processed

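RNA was extracted with phenol and chloroform and sequenced as 3′ digital gene expression libraries, per the labels' protocols. The deposited table holds read counts per gene, made by the authors with STAR and Subread, per the submitters' processing notes, in versions not given there. The genome build, annotation and strand of counting are not given in the sources used here. Of 45792 mouse genes 45143 (98.6%) carried a symbol. The 1 non-mouse entry, 0.816% of the counts at day 3, entered neither the library sizes nor any test.

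Genes were kept by edgeR's filterByExpr (minimum count 10, minimum total 15). One quasi-likelihood model (edgeR 4.0.16, R 4.3.3, TMM scaling, robust) of 12 groups was fitted to all 40 libraries, contrasts were taken on the 4 day 3 groups, and p-values were adjusted by Benjamini-Hochberg over 11834 genes. Log2 values are given ± standard error. Levels are TMM-scaled CPM. DESeq2 1.42.0, limma 3.58.1 voom and the other alternatives are in the closing section. The procedure was also run on simulated counts, with changes placed only in genes above a set mean level. The mostly even counts and the differing litter 2 epithelial control were not simulated, so that run is no support for single calls. Counting intervals (95%) and floors (3 counts over a group) cover counting error only. Of the counts from 1 to 10 in a library 67.6% to 81.9% were even. If a read was entered as 2 counts, these intervals and floors are too narrow, so halved counts were also tried. Litter numbers in the labels gave the pairing. Deviations from group means correlated between -0.102 and 0.108 over 18 same-litter pairs. Promoters and their start sites come from RefSeq (GRCm38.p6).

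The comparison and gene lists were chosen with earlier results of these data known. The text names the genes past the interaction threshold, up to 6 in each direction per preparation by adjusted p, per list the members past it or else the one with the smallest p and the one with the highest level, and a set of genes always named. Genes named outside that rule, among them Irgm1, H2-T23, Cldn3, Hadha, Irf9, Phrf1 and the relatives of Gstm3, were chosen after their values were seen. Some genes that the rule names are not reported here.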

Additional observations from a re-analysis of the deposited data

Results flagged for a closer look

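In 4 genes the response differed between epithelium and total tissue by a test of the difference itself (edgeR's quasi-likelihood test, 3 libraries in each of 4 groups). The log2 differences were 2.85 for Gstm3, 1.85 for Irf7, 1.78 for Neu1 and 4.57 for Spns1, whose fitted value rests on 2 counts in the epithelial controls and is no bound.

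The deposited counts also have 1 entry that is not a mouse gene and that no comparison above uses. It was higher with T.mu than in controls in each preparation. Its mean was 1030 ± 903 CPM of all counts (SD, n = 3) in epithelium with T.mu against 51.9 ± 18.3 in controls, and 26200 ± 18300 CPM in tissue with T.mu against 23.3 ± 5.42 in controls. By litter the tissue libraries with T.mu stood at 6530, 29200 and 42800 CPM and the epithelial ones at 2070, 603 and 423 CPM. A mouse gene without a symbol, ENSMUSG00000089855, followed the same order in those tissue libraries, at 209, 630 and 1185 CPM, against 1.52 to 2.67 CPM in tissue controls. In the epithelial libraries with T.mu it did not follow that entry, at 26.6, 14.8 and 32.7 CPM. Whether reads of that gene and of the non-mouse entry share an origin was not tested.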

How the results depend on the processing

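The interaction count of 4 genes became 11 with no low-count filter, 1 among genes kept in each preparation, 8 with DESeq2 and 0 with limma voom. It was 1 with day 3 libraries only, 1 with counts halved and 0 with the mitochondrial share as a covariate, which was chosen after seeing the data. A replicate block by litter left 4, a replicate block by animal 2, and the litter block with GC content and length correction 1. Leaving out 1 library gave 1 to 72. The epithelial count of 60 became 39 with RLE scaling, 9 with limma voom, 24 with counts halved, 11 without libraries under 400000 counts, 31 with the litter block and GC and length correction, and 21 with the mitochondrial share, and leaving out 1 library gave 27 to 209. The litter block alone left 45. The tissue count of 53 became 30 among genes kept in each preparation and 83 with limma voom, and leaving out 1 library gave 28 to 53. Causes were not tested. In the shallowest epithelial control, of 170291 counts, a gene at 0 could have been at up to 3 counts.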
